A study of Mus musculus with 72 samples.

Results

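Introns are removed from a transcript while or soon after it is made, so sequencing reads that fall inside an intron come mostly from RNA that is not yet spliced, and sometimes from an intron that stays in the finished message. Reads in exons count the finished message, which is more abundant and lives longer, so the 2 kinds of read can give different pictures of the same gene. The regions described here are the mouse liver introns with the most reads on the strand of their gene. They are the 7345 single intron rows of the sense intron table, of 200985 rows in all (3.65%), whose mean was at least 20 counts over 72 liver libraries. They were chosen by the mean count over all libraries, so their abundance is a description and not a result. Just inside the threshold were intron 2 of Pecr, intron 2 of Sardh and intron 1 of Aacs, each with a mean of 20.0 counts, and just outside it were intron 2 of Hnrnpa2b1, intron 1 of Rab43 and intron 5 of Saraf, each with 19.99.

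The libraries came from livers of female and male wild type C57bl6 mice aged 8 to 16 weeks, under a light cycle of 12 h light and 12 h dark with free access to food and water. Each sex had a control group and a group labelled misaligned, and from week 1 of either schedule all mice, controls included, ate a diet in which fat supplied 42% of calories. Livers were taken after perfusion at clock times 0, 4, 8, 12, 16 and 20 h, from 3 mice of each sex, treatment and time, which makes 24 groups of 3 and 18 livers per sex and treatment. The sources used here do not describe the misalignment schedule, nor how the clock time of a misaligned mouse stood to its own light cycle. RNA was poly(A) selected, a step that favours finished messages, so unspliced RNA that has no tail yet is under-represented.

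The liver clock is a transcription loop. BMAL1 and CLOCK bind E-box elements and switch on Per, Cry, Nr1d1 and Dbp. PER and CRY proteins shut this off again, NR1D1 (REV-ERB alpha) represses genes with a ROR element, and DBP, TEF and their antagonist NFIL3 act on D-box elements of output genes, among them detoxifying enzymes and transporters. Because transcription of such genes starts and stops every day, unspliced RNA can follow it closely, while the swing of the message also depends on how fast it decays.

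A few sequences show what these regions hold. The first intron of Dbp gave the widest swing of the introns in controls. Its annotated rows start at chr7:45705763 on the + strand of GRCm38, and the longer of the 2 rows ends at position 45708259. The stretch chr7:45707681-45707860 lies in the longer row only. It is shown because it holds a pair of E-boxes (CACGTG, the same on both strands), whose first bases are 113 bases apart. Capitals mark the E-boxes.
Dbp intron stretch: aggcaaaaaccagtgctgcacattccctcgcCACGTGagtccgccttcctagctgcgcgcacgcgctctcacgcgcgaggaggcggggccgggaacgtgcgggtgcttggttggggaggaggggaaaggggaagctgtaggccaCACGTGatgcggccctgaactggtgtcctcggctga
Readable E-boxes in introns of 2 other genes follow, Chka (choline kinase, chr19:3866869-3866958 and chr19:3876777-3876866, + strand) and Tef, a D-box activator (chr15:81816760-81816849, + strand). The far Chka stretch lies beyond the end of the shortest Chka intron 2 row and inside the row that ends at position 3882009.
Chka near stretch: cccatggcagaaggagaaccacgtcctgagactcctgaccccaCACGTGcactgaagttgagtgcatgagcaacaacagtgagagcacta
Chka far stretch: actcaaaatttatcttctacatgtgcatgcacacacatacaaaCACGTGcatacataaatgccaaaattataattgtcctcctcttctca
Tef intron stretch: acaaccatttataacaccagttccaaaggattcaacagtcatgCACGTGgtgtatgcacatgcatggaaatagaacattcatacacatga
The 250 bases before the start of Per3 (chr4:151044666-151044915, - strand, from RefSeq, GRCm38.p6) are shown because the Per3 gene lies inside an intron row of Camta1 described below. Capitals mark 2 D-boxes (TTATGTAA, or TTACATAA on the other strand), which begin 205 and 158 bases before the start.
Per3 promoter: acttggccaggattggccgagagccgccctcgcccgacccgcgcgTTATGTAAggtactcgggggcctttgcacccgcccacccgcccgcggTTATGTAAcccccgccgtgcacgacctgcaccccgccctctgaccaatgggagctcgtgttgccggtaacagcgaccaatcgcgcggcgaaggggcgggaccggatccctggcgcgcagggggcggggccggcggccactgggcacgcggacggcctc
The search for these letters read the stretches that annotated retained-intron transcripts spell out, which gave 945012 bases in 1404 of the 7345 introns. Cut into 4351 windows of 180 bases, 3.15% held the E-box and 0.621% the D-box. Over all 32851 promoter windows of 250 bases the shares were 6.02% and 0.819%. Of the 332 gene symbols with an intron called rhythmic in any group, 252 had a promoter window, and of their 351 windows 20 (5.7%) held the E-box and 9 (2.56%) the D-box, those of Alb, Ces1b, Ces1e, Ces1g, Gde1, Map2k6, Per3, Slc16a12 and Wnt5b. A match is a description of letters, not of binding.

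Short introns can be shown whole. Capitals mark the first 6 and the last 3 bases, where the splicing machinery recognises the intron. Of 44 introns of at most 300 bases that could be read, 42 began with GT and ended with AG, 1 ran from GC to AG and 1 from GC to TG. The 3 below were chosen after their values were seen.
Khk intron 7, chr5:30930637-30930715, + strand, 79 bases: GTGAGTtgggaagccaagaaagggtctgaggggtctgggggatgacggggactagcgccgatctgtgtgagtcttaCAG
Haao intron 3, chr17:83838579-83838800, - strand, 222 bases: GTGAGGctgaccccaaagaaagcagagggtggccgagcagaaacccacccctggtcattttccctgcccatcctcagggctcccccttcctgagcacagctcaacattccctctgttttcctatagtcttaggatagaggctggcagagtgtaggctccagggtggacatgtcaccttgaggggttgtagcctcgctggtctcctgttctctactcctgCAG
Gstp1 intron 2, chr19:4037397-4037584, - strand, 188 bases: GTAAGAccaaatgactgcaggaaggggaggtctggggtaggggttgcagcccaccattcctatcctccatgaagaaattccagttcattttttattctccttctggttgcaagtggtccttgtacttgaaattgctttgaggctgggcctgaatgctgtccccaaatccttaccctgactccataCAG
Khk encodes the enzyme that commits fructose to metabolism, and its intron 7 had a median of 105.5 counts in control females, 105.5 in misaligned females, 111.0 in control males and 111.0 in misaligned males. Haao, of tryptophan breakdown, had medians of 63.0, 56.5, 47.5 and 43.0 counts in the same order. Gstp1, a glutathione transferase, had 35.5, 41.0, 105.5 and 125.5, and its highest female liver (65 counts) overlapped only the low end of the males (57 counts). None of the 44 introns was called rhythmic in any group, and 7 of them differed between the sexes in controls. Of all 7345 introns 6.24% were called rhythmic in control females, 4.33% in misaligned females and 4.74% in control males. In misaligned males it was 0%, and 25% differed between the sexes in controls. At such shares few rhythmic introns would be found among 44.

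The introns belonged to 2527 gene symbols, with 52 rows that carry no symbol, and 7209 of them match an intron of the GENCODE annotation. A protein-coding gene was the host of 6866. There were 1084 genes with 1 such intron, 444 with at least 5 and 93 with at least 10. The median length was 2619 bases, from 35 to 4384418, with 709 introns under 300 bases and 140 over 100 kb. The first intron of a transcript made up 22.0% of the annotated ones and the last 26.1%. Many rows overlap, since alternative transcripts give overlapping introns, and 4263 held no exon of another transcript on the same strand. The rows that match the annotation, hold no such exon and share no reads with another row number 3029, and counts are given for these separately where they differ. Introns of 1 gene come from the same RNA, so neither rows nor introns of a gene are independent of each other.

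Abundant liver messages held the abundant introns. The 8 rows with the highest means took 8.72% of the counts of all 7345. Albumin led, with a mean of 11659 counts in the row of Alb intron 2, 6608 in intron 6 and 4058 in intron 14, followed by intron 3 of the complement gene C3 (4222, a row that spans exons) and intron 3 of Acaa1b, a peroxisomal thiolase (4128). The row of Alb intron 2 also spans introns 6 and 7 and the bases between them. Its count and the 8.72% can therefore include reads that are counted in other rows or lie in exons. Per kb of intron the order changed. Intron 8 of Hpx (hemopexin), 83 bases long, stood at 10448 counts per kb, ahead of Apoa2 intron 3 at 5442 and C3 intron 39 at 5176. The median over all was 17.6 counts per kb.

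Depth was even. A library held 887656 to 926074 counts in intron rows, of which 59.1 to 69.2% fell in these introns, and no library stood apart, the median correlation of a library's log2 values with the others running from 0.757 to 0.826. Of the 7345 introns 7238 had at least 1 count in every liver, and all 7345 entered each test of counts, which ran over 28916 introns. Reads on the opposite strand were rare, with a median over introns of 0.028 counts, but 159 introns had over 10% of their sense count there and 15 had more antisense than sense reads. Precision rested on 18 livers per sex and treatment, 3 at each clock time. The median SE was 0.139 for a rhythm's amplitude in control females and 0.140 for a log2 difference between the sexes in controls. In data simulated at these depths the rhythm test in control males found 26% of introns with an amplitude of 0.5 and 89% of those with an amplitude of 1. The simulation gave all groups the same spread among livers.

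Introns with a daily rhythm were found in control livers of both sexes and in misaligned females, and none passed the test in misaligned males. A rhythm is a cosine of 24 h fitted to the counts, its amplitude is the log2 distance from mean to peak, and called means an adjusted p under 0.05 in edgeR's quasi-likelihood test (Benjamini-Hochberg over all 28916 introns). In control females 458 of the 7345 were called (6.24%, in 224 gene symbols), against 3.15% of all introns tested. In misaligned females 318 were called (4.33%, 141 symbols), against 1.95%, and in control males 348 (4.74%, 166 symbols), against 2.1%. Introns tested with a mean under 20 counts were called less often, 2.1%, 1.15% and 1.2% of 21571. In misaligned males 0 were called, against 0%, although 610 had an unadjusted p below 0.05, and the lowest adjusted p by edgeR was 0.234. limma-voom also called 0 there and DESeq2 called 4. The rows that share no reads gave shares of 5.84%, 3.73% and 4.03% in the 3 groups. In bulk liver, fewer cells of a type and less RNA per cell cannot be told apart.

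Fewer introns passed when livers were left out, and how many fewer differed with the livers left out. With the livers of 1 replicate number left out, which takes 1 of 3 livers from every group, the count fell to between 161 and 269 in control females, 73 and 147 in misaligned females and 89 and 217 in control males. The sets overlapped in part. Control females and control males shared 193 introns (42.1% and 55.5% of each set), the 2 female groups shared 201 (43.9% and 63.2%), and 144 introns in 67 symbols were called in all 3 groups. The median amplitude of the called introns was 0.745 in control females, 0.754 in misaligned females and 0.770 in control males, and the highest were 3.34, 3.88 and 3.56.

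Peaks fell into 2 waves. In control males 107 of the 348 introns peaked between 8 and 12 h, 97 between 16 and 20 h and 80 between 20 and 24 h, while only 5 peaked between 0 and 4 h. In control females the waves lay at 8 to 12 h (113 of 458) and 20 to 24 h (147), with 57 between 0 and 4 h and 35 between 16 and 20 h. In misaligned females they lay at 8 to 12 h (74 of 318) and 16 to 20 h (93). Counting each gene once, control males had 54 of 167 peaks at 8 to 12 h, 44 at 16 to 20 h and 46 at 20 to 24 h.

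**Figure D1:**
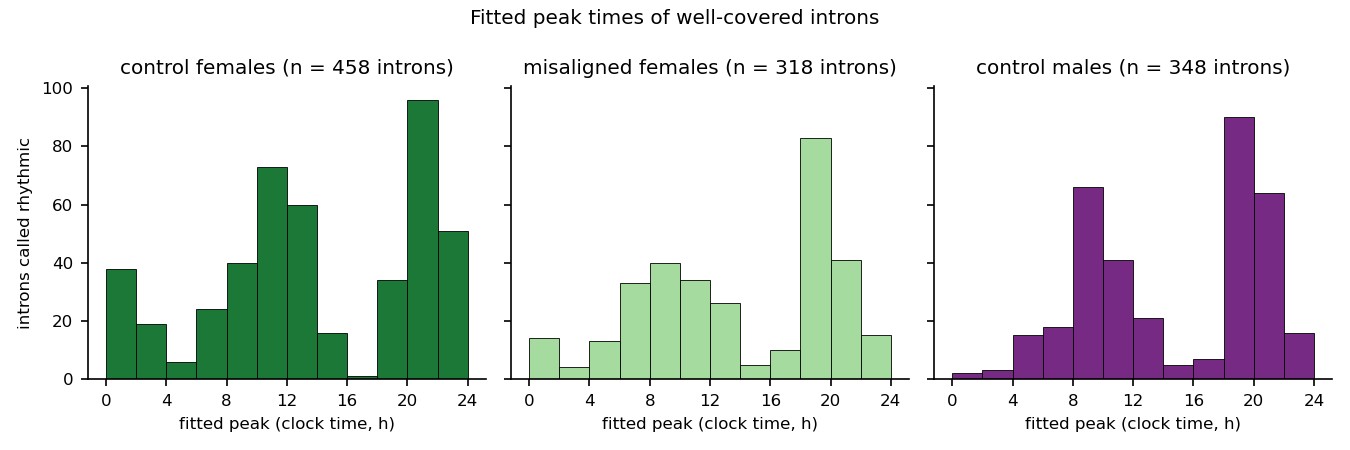
Histograms of fitted peak times (clock time in h, bins of 2 h) of the introns called rhythmic in control females (458), misaligned females (318) and control males (348); bars count introns. Peaks gather around 10 h and around 20 h, and in control males few fall between 0 and 4 h.

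Introns of the clock loop itself swung most. Of 19 core clock genes 9 had an intron in the set, 16 introns in all, and 11 of these were called in control females, 7 in misaligned females and 8 in control males. Among all 7345 the shares were 6.24%, 4.33% and 4.74%, as above. The gene list was drawn up with earlier results of these data known.

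Dbp encodes a D-box activator. Its intron 1 (chr7:45705763-45706605, + strand) had a mean of 44.0 counts, and the second, longer row holds nearly the same reads. In control females the livers held 1, 0 and 2 counts at 0 h, 118, 22 and 49 at 4 h, 76, 121 and 178 at 8 h, 45, 55 and 38 at 12 h, 7, 4 and 7 at 16 h and 0, 2 and 4 at 20 h. The livers of 4 to 12 h were all above those of the other times. In control males they held 4, 2 and 5 at 0 h, 120, 81 and 71 at 4 h, 121, 127 and 94 at 8 h, 38, 43 and 14 at 12 h, 4, 2 and 6 at 16 h and 1, 0 and 0 at 20 h, again with no overlap between 4 to 12 h and the rest. The fitted amplitude was 3.33 ± 0.53 (SE) in control females, peaking at 8.04 h (edgeR adjusted p = 6.8e-06), 3.88 at 6.10 h in misaligned females (adjusted p = 2.2e-06) and 3.56 ± 0.56 at 7.27 h in control males (adjusted p = 5.2e-06).

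Nr1d1 (REV-ERB alpha) peaked before Dbp. Its intron 7 (chr11:98768420-98769048, - strand, mean 28.8) held 95, 47 and 66 counts at 4 h and 49, 58 and 69 at 8 h in control females, but 3, 1 and 3 at 16 h. In control males it held 40, 52 and 47 at 4 h and 4, 0 and 1 at 16 h. Control females gave an amplitude of 2.29 ± 0.34 peaking at 5.57 h and control males 2.04 ± 0.35 at 5.15 h (edgeR adjusted p = 1.3e-05 and 2.6e-04). Of the other core clock introns, Nfil3 intron 1 (0.74, peak 21.5 h, adjusted p = 0.045) and Per1 intron 22 (0.61, peak 12.1 h, adjusted p = 0.033) were called by edgeR in control females only among the 4 groups, and Rora intron 1 (0.63, peak 10.8 h, adjusted p = 0.017) in control males only. The edgeR tests of a change in rhythm with misalignment in either sex, and of the sex difference in controls, called none of these 3 introns, with a smallest adjusted p of 0.068 for Nfil3 in males. Cry2 intron 11 was not called in any group, nor was Tef intron 2, whose control female amplitude of 1.48 came with an edgeR adjusted p of 0.115.

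Per3 shows how a row can carry another gene. Intron 20 of Per3 (chr4:151005960-151008227, - strand) swung by 2.00, peaking at 10.05 h, in control females and by 1.60 at 8.3 h in control males. Its livers held 109, 155 and 54 counts at 8 h and 13, 11 and 9 at 20 h in control females. The row of Camta1 intron 24 (chr4:150917334-151062675, - strand) contains the whole Per3 gene on the same strand and had an amplitude of 1.75 at 9.9 h, while the mRNA of Camta1 had 0.07. The D-boxes printed above are thus inside a Camta1 intron, and the rhythm of that row is not to be read as one of Camta1.

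Clock output genes and drug metabolism genes held many of the other called introns. Of 64 introns in 12 clock output genes 30 were called in control females, 22 in misaligned females and 26 in control males, and of 110 introns in 16 drug metabolism genes 28, 17 and 22. Among 233 introns in 28 plasma protein and acute phase genes 3, 15 and 5 were called, shares of which the first and the last lie below that of all 7345. Cholesterol synthesis and uptake (15 introns), splicing factors and nuclear RNA (32) and hosts of small nucleolar RNAs and ribosome genes (11) had 0 called in each group by edgeR. The shares over all 7345 were 6.24%, 4.33% and 4.74%, which would give few or no calls in sets of this size. Of 102 introns in 14 genes of lipogenesis and its SREBP control 4, 8 and 11 were called, and of 92 in 16 genes of fatty acid oxidation 2, 1 and 6.

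Alas1, the rate-limiting enzyme of haem synthesis, belongs to the wave of 8 to 12 h. Its intron 10 (chr9:106234198-106235387, - strand, mean 327) held 81, 77 and 59 counts at 0 h, 375, 397 and 805 at 8 h and 475, 483 and 547 at 12 h in control females, so the livers of 8 and 12 h lay above all of 0 and 4 h (107, 153 and 171). The amplitude was 1.54 ± 0.21 with a peak at 11.3 h (edgeR adjusted p = 8.5e-06), against 1.07 at 9.5 h in control males (adjusted p = 0.0023), where 1 liver of 16 h held 53 counts and the other two 300 and 431. Clpx encodes a mitochondrial protease subunit that acts on ALAS1, and it peaked in the opposite wave. Its intron 13 (chr9:65326889-65329813, + strand, mean 125) held 209, 163 and 230 counts at 0 h and 31, 23 and 40 at 8 h in control females, and 152, 159 and 135 against 62, 42 and 44 in control males. The amplitude was 1.60 ± 0.19 at 20.0 h and 1.33 ± 0.19 at 18.8 h (edgeR adjusted p = 6.9e-07 and 2.4e-05).

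Slc38a3, a glutamine transporter, had the smallest p of control males. Intron 15 is 90 bases long (chr9:107652039-107652128, - strand), and control males held 150, 128 and 143 counts at 0 h, 364, 555 and 237 at 8 h and 66, 89 and 117 at 20 h. The amplitude was 1.04 at 8.2 h (edgeR adjusted p = 3.1e-07). Ces1d, a carboxylesterase, held 15, 23 and 17 counts at 0 h and 136, 219 and 182 at 8 h in intron 6 (chr8:93185063-93186013, - strand) of control males, with an amplitude of 1.67 at 10.2 h (edgeR adjusted p = 1.5e-06). Ces1 genes are near copies of each other, so reads may be shared between them. Chka intron 2 (chr19:3864760-3875734, + strand), home of the near stretch printed above, held 208, 139 and 144 counts at 20 h and 7, 16 and 9 at 8 h in control males, with an amplitude of 1.87 at 19.8 h (edgeR adjusted p = 4.7e-06).

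Other introns followed the later wave at smaller counts. Insig2 intron 3, of a gene that restrains SREBP, had an amplitude of 1.34 at 19.6 h in control females and 1.29 at 18.8 h in control males. Igfbp1 intron 1, of a hepatokine that insulin represses, had 1.43 at 21.6 h and 1.42 at 19.3 h. Abcb11 intron 20, of the bile salt export pump, had 0.96 at 23.5 h and 0.85 at 21.6 h. Coq8a intron 11 had 1.14 at 21.8 h in control females. Gys2, the liver glycogen synthase, peaked at an earlier clock time, with intron 12 at 0.91 and 7.1 h in control females and intron 13 at 0.68 and 8.9 h in control males. Hspa5 intron 8 (chr2:34775234-34775550, + strand), of the chaperone BiP, was called in control males (0.71 at 22.7 h, edgeR adjusted p = 8.6e-04) and not in control females (0.16, adjusted p = 0.83). The test of the sex difference of rhythms in controls called 0 of 7345 introns, against 0% of all, with 283 at an unadjusted p under 0.05 by edgeR, and 0 by DESeq2 and limma-voom. Tsku intron 2, of a secreted leucine-rich protein, had 1.25 at 13.4 h in control females and 0.28 in control males.

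**Figure D2:**
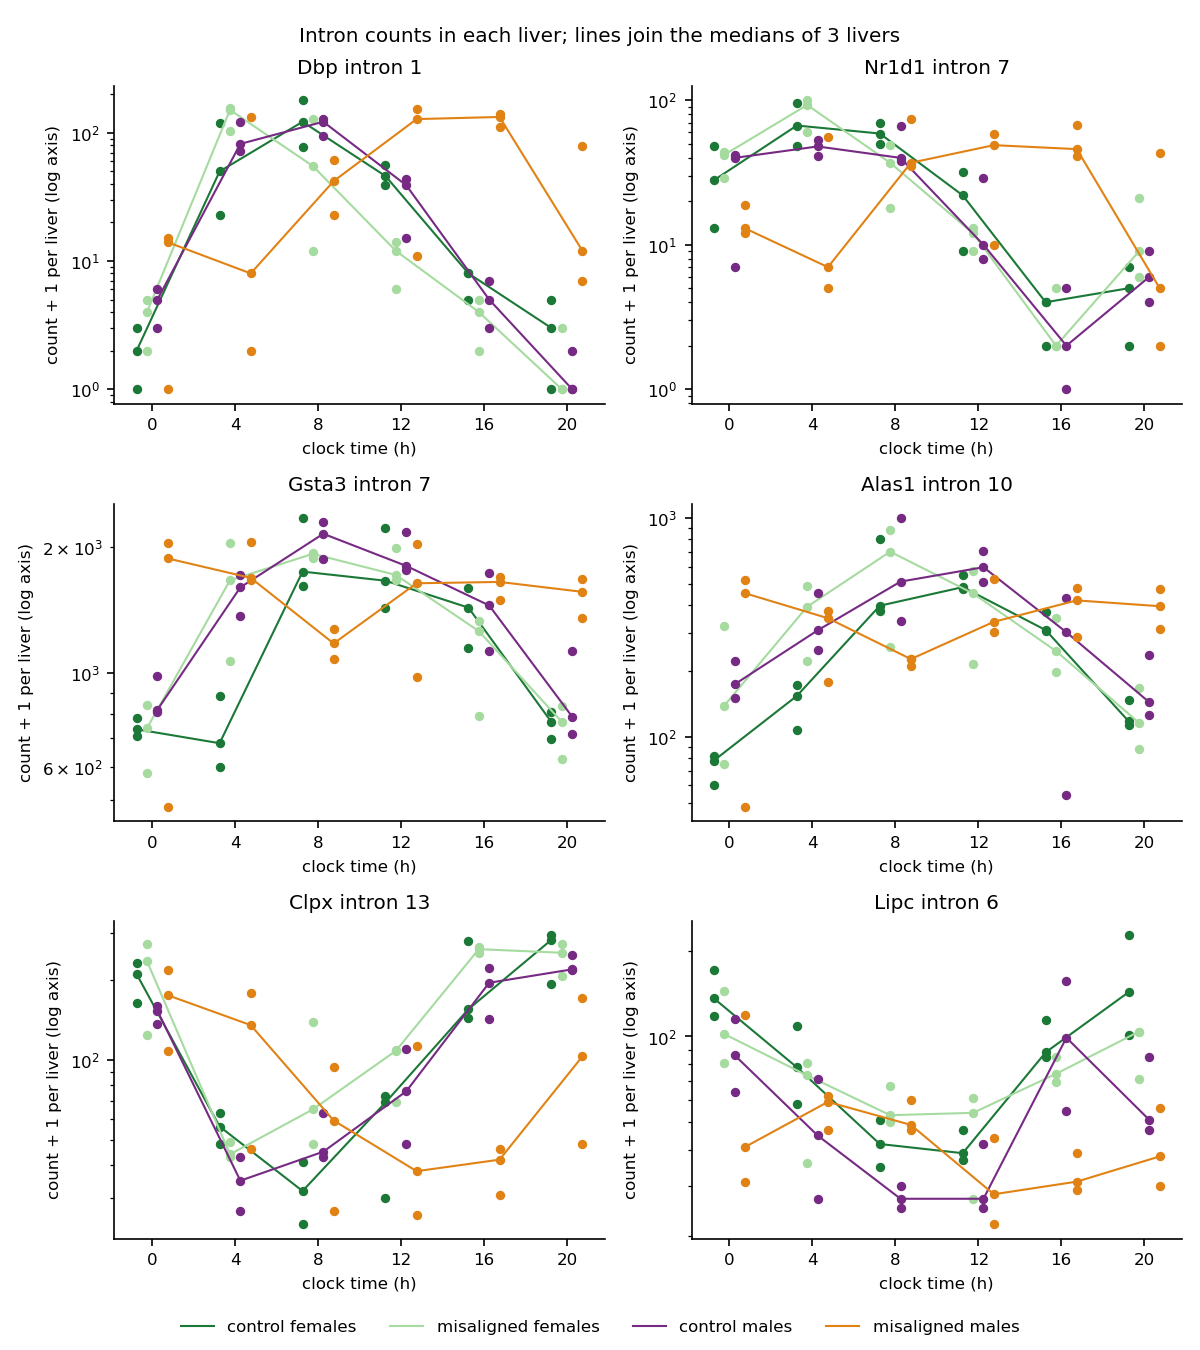
Counts plus 1 (log axis) of 6 introns against clock time in h, 1 point per liver, 4 groups by colour, lines joining the medians of 3 livers: Dbp intron 1, Nr1d1 intron 7, Gsta3 intron 7, Alas1 intron 10, Clpx intron 13 and Lipc intron 6. Dbp intron 1 in misaligned males, for example, stands at 7, 132 and 1 counts at 4 h.

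In misaligned females the rhythms came earlier by about 2 h. Of the 201 introns called in both female groups (89 symbols) 195 peaked earlier in misaligned mice (97.0%). The median shift was -2.20 h, with quartiles of -2.84 and -1.34 h, and the median ratio of the amplitudes was 0.902. Being called in both groups selects for amplitudes that stayed high: over all 458 introns called in control females the ratio was 0.754, with 396 lower, and the shift -2.12 h. The 69 rows that share no reads gave -2.23 h, 65 of them earlier. Dbp moved from 8.04 to 6.10 h, Nr1d1 from 5.57 to 3.91 h, Gsta3 intron 7 from 11.4 to 9.19 h and Alas1 intron 10 from 11.3 to 8.84 h, while Lipc intron 6 (21.6 against 21.9 h) was not called in misaligned females (edgeR adjusted p = 0.11). No single intron passed the test of a change in rhythm: 0 of 7345 were called by edgeR, against 0% of all, with 529 at an unadjusted p under 0.05, 0 by limma-voom and 3 by DESeq2. The shift is therefore a description of many introns and not a test of any 1 of them. How clock time stood to the light cycle of misaligned mice is not given, so hours are those of the labels.

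A smaller offset of the same kind separated the control sexes. Of the 193 introns called in both (87 symbols) 171 peaked earlier in males, by a median of 1.34 h, with a median amplitude ratio of 0.967. Dbp peaked at 7.27 h against 8.04 h and Clpx intron 13 at 18.8 h against 20.0 h. The edgeR test of the sex difference of rhythms in controls called 0 of 7345 introns. The offset is therefore a description of many introns, which are not independent of each other, and not a tested difference.

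In misaligned males the same introns were flatter and later. The 348 introns called in control males had a median amplitude of 0.770 there and 0.341 in misaligned males, a median ratio of 0.451, and 347 of them were lower. The fitted peaks lay later by a median of 7.38 h, with quartiles of 6.04 and 8.82 h. Among the 122 rows that share no reads all 122 were lower, the ratio was 0.413 and the shift 7.20 h. These introns were picked for their rhythm in control males, which by itself makes a second group look flatter. The same 348 had ratios of 0.865 in control females and 0.793 in misaligned females. Introns picked in females also came out flat in misaligned males, the 458 of control females at 0.407 and the 318 of misaligned females at 0.433. A peak time fitted to a rhythm that was not called is loosely determined.

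**Figure D3:**
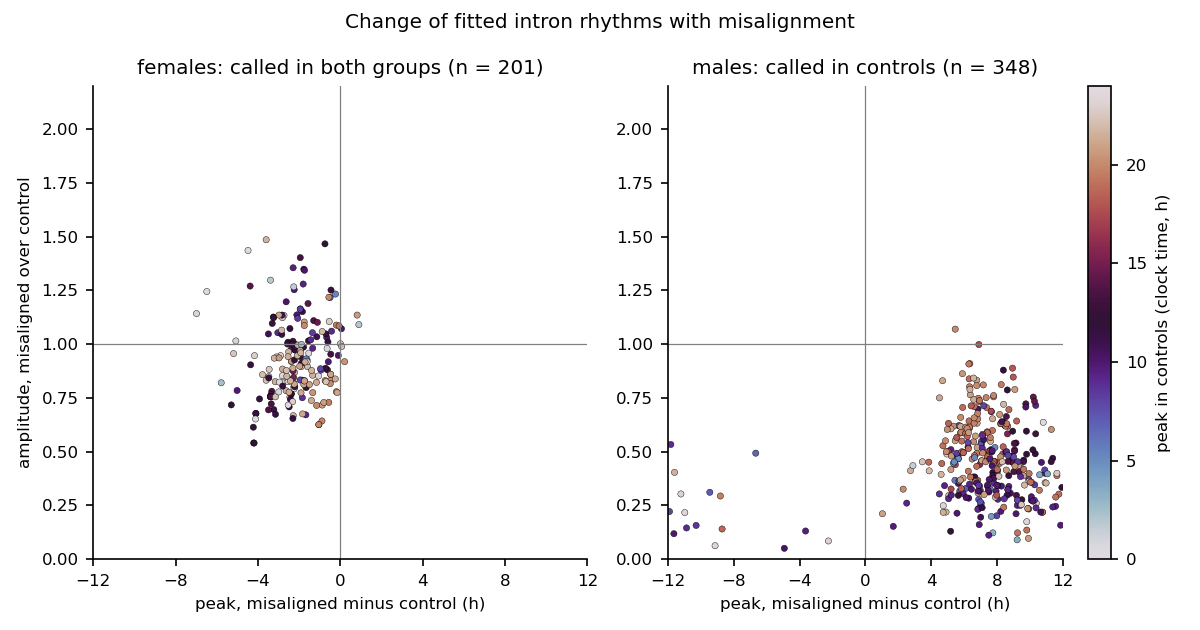
Change of the fitted rhythm for single introns: x, peak of misaligned minus peak of control mice in h, y, ratio of amplitudes, misaligned over control. Left, 201 introns called in both female groups; right, 348 introns called in control males; colour gives the control peak. Females sit near -2 h with ratios around 0.9, and males lie to the right at about 7 h with ratios mostly under 1.

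The change of rhythm in males passed the test for 257 introns (3.5%, 125 symbols), against 1.48% of all tested. With the replicate numbers left out in turn the count was 0, 86 and 214, so no call was left without the livers numbered 1. The test across the 6 clock times with no cosine gave 152. Each adjusted p below comes from the cosine fit and covers amplitude and peak together, not the amplitude alone. Fitted peaks moved too, later by 5.90 h for Clpx intron 13, 5.68 h for Dbp intron 1 and 11.9 h for Gsta3 intron 7. Slc38a3 intron 15 had the smallest p (edgeR adjusted p = 3.9e-05, and 0.067 without replicate 1), its amplitude going from 1.04 to 0.26. Ces1d intron 6 went from 1.67 to 0.62 (adjusted p = 6.4e-05, and 0.0933 without replicate 1 by edgeR). Chka intron 2 went from 1.87 at 19.8 h to 1.18 at 2.4 h (adjusted p = 6.9e-05 by edgeR). B3gat3 intron 2, of an enzyme that builds the linker of heparan sulfate, went from 0.87 at 19.9 h to 0.40 at 3.2 h (edgeR adjusted p = 1.1e-04). Dbp intron 1 went from 3.56 to 1.29 (edgeR adjusted p = 0.0002), Nr1d1 intron 7 from 2.04 to 0.96 (0.0021), Clpx intron 13 from 1.33 to 0.94 (0.0010), Gsta3 intron 7 from 0.72 to 0.11 (0.0067), Alas1 intron 10 from 1.07 to 0.36 (0.015) and Lipc intron 6 from 0.87 to 0.53 (0.017). By list, 7 of 16 core clock introns, 21 of 64 in clock outputs, 18 of 110 in drug metabolism and 1 of 233 in plasma proteins were called.

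Livers of the same clock time differed widely in misaligned males. Dbp intron 1 held 13, 14 and 0 counts at 0 h, 7, 132 and 1 at 4 h, 41, 22 and 60 at 8 h, 10, 152 and 127 at 12 h, 139, 111 and 132 at 16 h and 78, 6 and 11 at 20 h. High and low livers thus stood side by side at 4, 12 and 20 h, and at 16 h all 3 livers were high. At 0 h the liver numbered 3 differed from the other two in each of these introns: Gsta3 intron 7 held 1873, 2040 and 481 counts, Alas1 intron 10 held 453, 519 and 47, Ces1d intron 6 held 163, 159 and 30, and Chka intron 2, of the opposite wave, held 34, 27 and 227. At 4 h the liver numbered 2 was the odd 1, with 4, 55 and 6 counts in Nr1d1 intron 7 and 173, 15 and 113 in Chka intron 2. At 20 h it was the liver numbered 1, with 42, 1 and 4 counts in Nr1d1 intron 7 and 47, 102 and 170 in Clpx intron 13. The median SD of log2 values among livers of a clock time, over the 348 introns, was 0.548 in misaligned males, 0.437 in control males, 0.399 in control females and 0.423 in misaligned females. Over all 7345 it was 0.431, 0.409, 0.379 and 0.362. Whether this spread accounts for the smaller amplitudes was not tested.

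The change with misalignment differed between the sexes for 58 introns (0.79%, 34 symbols), against 0.342% of all tested, and for 0, 18 and 22 with replicate 1, 2 or 3 left out. They include Dbp intron 1 (edgeR adjusted p = 0.0062), where the amplitude was 3.33 in control and 3.88 in misaligned females, and 3.56 and 1.29 in males, and Ces1d intron 6 and Chka intron 2 (both 0.0034 by edgeR). Core clock genes gave 3 of the 58, clock outputs 4 and drug metabolism genes 7.

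The mean level over the day did not pass the test for any intron with misalignment. edgeR called 0 of 7345 in females, against 0% of all, with 593 at an unadjusted p under 0.05, and 0 in males, against 0%, with 346. The sex difference of the effect gave 0, against 0%, with 482. DESeq2 and limma-voom gave 0 in all 3 comparisons. The median log2 effect was 0.01 in females and 0.00 in males, and its median SE was 0.140 in either sex. In simulated data 36% of introns with a log2 change of 0.5 and 95% of those with a change of 1 were found in males, so changes of the smaller size were mostly not detectable at this depth. The simulation gave all groups the same spread, while the livers of misaligned males varied more than those of control males. The shares found may therefore be too high for males. Introns of lipogenesis genes had a median of -0.12 in females and 0.29 in males, and a median difference between those effects of 0.42, with 0 of 102 called.

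Intron rhythms ran ahead of the mRNA of the same gene by about 1 h. The mRNA rhythm was fitted to the gene counts in the same way. Of the introns called in control females 314 (137 symbols) had a host mRNA that was also called, and the mRNA peaked later by a median of 0.99 h, with the intron first for 84.4%. In control males it was 0.97 h (213 introns, 92 symbols, 85.4% first), and in misaligned females 0.955 h (236 introns, 78.8% first). The intron's amplitude was larger by a median ratio of 1.18 in control females and 1.12 in control males. These introns were picked by their own call, which by itself favours larger intron amplitudes. By length the lag was 0.363 h for introns under 300 bases, 1.25 h for those of 300 to 3000 bases and 1.01 h for longer ones in control females. In control males these were 0.316, 1.05 and 1.07 h, and in misaligned females 0.728, 0.961 and 0.961 h, with 21, 17 and 14 introns in the shortest class. The introns of a gene share its mRNA, so these are not independent pairs, and no test was made. Clpx intron 13 peaked at 20.0 h and its mRNA at 21.9 h in control females, Dbp intron 1 at 8.04 h and 8.8 h and Slc38a3 intron 15 at 9.2 h and 9.3 h.

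Some introns were called where the mRNA was not. In control females 127 of the called introns (78 symbols) had a host mRNA that was not called, and in control males 114 (63 symbols). Their amplitude was larger than that of the mRNA by a median ratio of 2.77 and 3.30, in part because calling 1 and not the other selects for it. In the other direction, 447 genes with an intron in the set had a called mRNA in control females and 137 of these had a called intron.

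**Figure D4:**
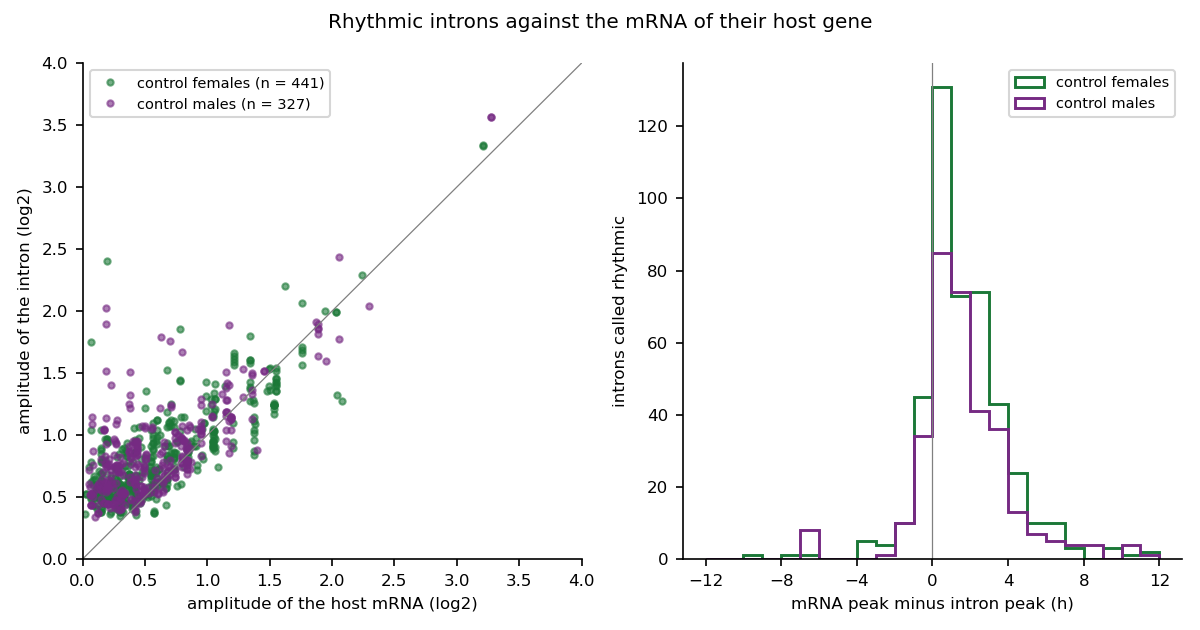
Left, amplitude (log2) of each called intron against that of its host mRNA, control females (441) and control males (327). Right, histogram of the peak of the mRNA minus the peak of the intron in h. Most points lie on the side of the intron's larger amplitude, which picking introns by their own call favours, and the lags centre near 1 h.

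Gsta3, a glutathione transferase of alpha class, had an intron at high counts. Its intron 7 (chr1:21262925-21264842, + strand, mean 1376) held 735, 780 and 710 counts at 0 h, 681, 599 and 882 at 4 h, 1613, 1743 and 2338 at 8 h, 1429, 2213 and 1658 at 12 h, 1149, 1595 and 1431 at 16 h and 765, 695 and 807 at 20 h in control females. All livers of 8 to 16 h lay above all of the other times. The amplitude was 0.83 ± 0.11 at 11.4 h (edgeR adjusted p = 3.8e-06), while the mRNA had 0.35 at 16.3 h. In control males the values were 0.72 ± 0.11 at 9.73 h against 0.23 for the mRNA, which was not called. Lipc, hepatic lipase, went further. Its intron 6 (chr9:70803815-70812669, - strand, mean 67.4) held 170, 117 and 135 counts at 0 h and 34, 41 and 50 at 8 h in control females, and 63, 85 and 114 against 24, 29 and 26 in control males. The amplitude was 1.04 ± 0.16 at 21.6 h and 0.87 ± 0.16 at 20.2 h, while the mRNA had 0.06 and 0.08.

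The ratio of intron to gene counts asks this directly. It was tested per liver as a log2 ratio with a prior count of 2 with limma, for the 7074 introns whose gene was in the gene table (27808 in all). In control females 140 had a rhythmic ratio (1.98%), against 0.806% of all, and in control males 96 (1.36%), against 0.543%. Replicates left out in turn gave 25 to 42 and 4 to 33. With reads across the same intron's splice junction in place of gene counts, an alternative chosen after seeing the data, control females had 76 of 4919. Gsta3 intron 7 had a ratio amplitude of 0.79 at 9.9 h in control females and 0.75 at 8.5 h in control males (limma adjusted p = 1.9e-04 and 9.1e-04). Lipc intron 6 had 0.94 at 21.5 h and 0.75 at 19.9 h (limma adjusted p = 7.0e-05 and 0.0039). Ces1d intron 6 had 1.27 at 9.2 h and 1.47 at 8.3 h (limma adjusted p = 1.9e-04 and 1.7e-05), as its mRNA peaked at 15.0 h and 14.3 h with smaller amplitudes of 0.68 and 0.79. Cpn1 intron 7, of carboxypeptidase N, had 0.68 at 20.4 h in control males (limma adjusted p = 8.9e-05), Gstm3 intron 7, of a glutathione transferase, 1.01 at 19.7 h (3.6e-04) and Inmt intron 1, of an indolamine methyltransferase, 0.57 at 5.0 h in control females (1.8e-04). Gjb1 intron 1, of the gap junction protein connexin 32, had 0.46 at 18.9 h in control males (0.0016). The ratios of Dbp, Nr1d1, Alas1 intron 10 and Slc38a3 intron 15 were not called rhythmic by limma in either control group, which does not show that they were flat.

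With misalignment the rhythm of the ratio changed in males for 60 introns (0.848%), against 0.342% of all, and in females for 0, against 0%, with 490 at an unadjusted p under 0.05 by limma. The male count was 0, 32 and 24 with replicate 1, 2 or 3 left out. Ces1d intron 13 (chr8:93166439-93169720, - strand) had the smallest p (limma adjusted p = 1.1e-04), with Gstm3 intron 7 (0.0018) and Gjb1 intron 1 (0.0043) among the others. The mean ratio over the day was called for 0 of 7074 in females, against 0%, with 548 at an unadjusted p under 0.05, and for 0 in males, against 0%, with 305 by limma.

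Called introns of 1 gene differed in peak time by a median of 1.02 to 1.54 h. Among rows that share no reads, 33 genes had 2 or more introns called in control females, 93 introns, and the median range of their peaks was 1.02 h. It was 1.25 h over 24 genes in control males and 1.54 h over 24 genes in misaligned females. The widest was Lgals9, a galectin, in control females, where intron 8 peaked at 20.0 h and intron 9 at 2.6 h, 6.63 h apart. Cbs, which makes cystathionine from homocysteine, split by position. Its introns 10, 11, 13 and 14 peaked at 21.5, 21.8, 21.2 and 21.4 h in control females, and introns 4 and 5 at 1.6 and 1.8 h, near the mRNA at 0.65 h. Intron 13 (chr17:31616155-31617126, - strand) held 67, 67 and 51 counts at 16 h and 25, 74 and 34 at 4 h, whereas intron 4 (chr17:31625571-31625882, - strand) held 43, 38 and 20 at 16 h and 69, 62 and 65 at 4 h. Misaligned females showed the split as well, 19.8 h for intron 13 and 23.3 h for intron 4. In Slc38a3 introns 5, 6, 8, 13 and 15 of control males peaked between 7.98 and 9.03 h and intron 3 (chr9:107658753-107658931, - strand) at 4.4 h (edgeR adjusted p = 0.042). Intron 3 held 25, 89 and 58 counts at 4 h and 20, 55 and 32 at 8 h. Adh1, alcohol dehydrogenase, had intron 5 at 9.0 h and intron 7 at 12.4 h in control females. Differences between introns of a gene were not tested.

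Introns whose mean level differed between the sexes were many. In controls 1835 of 7345 introns differed between the sexes (25%), against 14.1% of all tested, 824 higher in males (against 7.16%) and 1011 higher in females (against 6.92%). In misaligned mice 2151 differed (29.3%), against 16.8%, 946 higher in males (against 8.79%) and 1205 higher in females (against 8.05%). An intron silent in 1 sex passes the mean of 20 only through the other, so it had to differ. Of the 6594 introns with a mean of at least 20 in each sex 1488 differed in controls, 660 higher in males, and 1780 in misaligned mice, 759 higher in males. Introns called under both treatments numbered 1367, and the direction was the same in each of them. The median absolute difference of the called introns was 0.583 in controls and 0.585 in misaligned mice, and 368 and 419 exceeded 2-fold. Leaving out replicates gave 983 to 1377 calls in controls and 1260 to 1511 in misaligned mice.

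**Figure D5:**
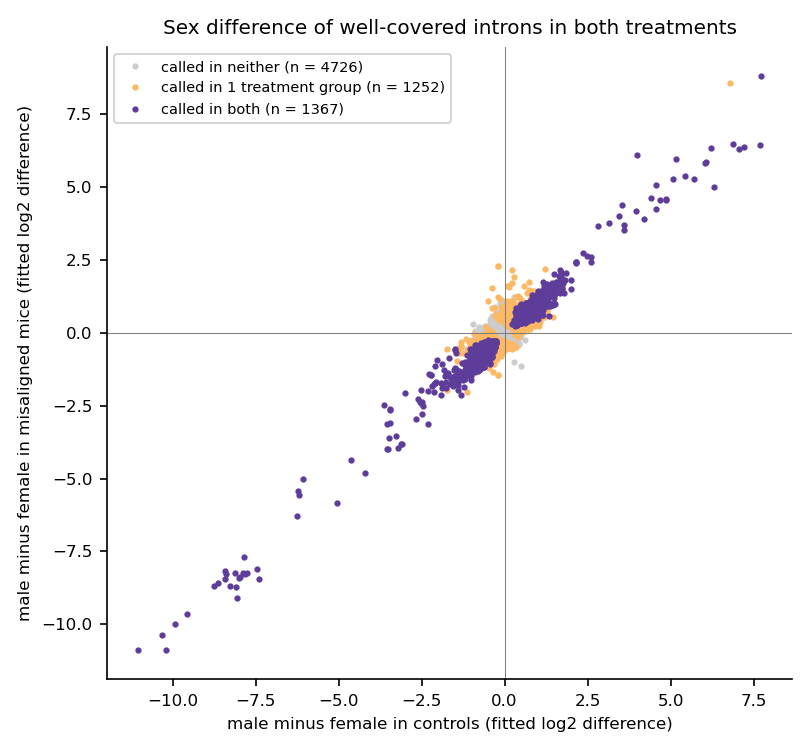
Log2 difference of males minus females of each of the 7345 introns in controls (x) and in misaligned mice (y). Colours mark introns called under neither treatment (4726), 1 treatment (1252) or both (1367); the introns called in both lie along the diagonal, away from 0.

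Several sulfotransferase and Cyp introns had many reads in females and 0 to 3 in any male. Sult2a1 intron 5 (chr7:13796468-13801381, - strand) held 64 to 526 counts in control females (median 241.5) and 70 to 469 in misaligned females (median 334.5), and in males 0 counts in all control livers and at most 1 in misaligned livers. Sult2a2 intron 2 (chr7:13734956-13738224, + strand) held 126 to 330 and 87 to 349, with at most 1 in any male. Cyp2b13 intron 6 held 34 to 346 and 22 to 241, with at most 3 in a male, and Cyp3a41a intron 3 had 24 to 97 and 2 to 108, with 0 in all 36 males. A count of 0 allows up to 3 counts in a library, for counting error only. No fold is given for these, and their families hold near copies.

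Male-high introns were led by the major urinary proteins, pheromone carriers made under growth hormone. Mup20 intron 4 (chr4:62051584-62051900, - strand) held 291 to 1856 counts in control males (median 1205) and 8 to 33 in control females (median 17.5), and 504 to 2479 against 8 to 58 in misaligned mice. In controls the female median is under the minimum of 20, so the difference is given as a description, with no test. The groups did not overlap. Mup genes share reads, so the value belongs to the family. Ephb2 intron 9 (chr4:136661517-136672442, - strand), of an ephrin receptor, held 2 to 112 counts in control males and 0 to 7 in control females. Scp2 intron 4, in the gene of a sterol carrier protein, gave 150 to 274 counts in control males and 37 to 87 in control females, with no overlap, a log2 difference of 1.74 ± 0.11. Of the short introns shown above, Gstp1 intron 2 was higher in males by 1.74 ± 0.13 in controls and 1.49 ± 0.13 in misaligned mice (edgeR adjusted p = 1.4e-17 and 4.6e-15), Haao intron 3 was lower in males by -0.45 ± 0.13 in controls (adjusted p = 0.0093 by edgeR), and Khk intron 7 stood at 0.15 ± 0.12 (adjusted p = 0.45 by edgeR).

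Plasma protein genes leaned to females. Of their 233 introns 91 were higher in females and 23 in males in controls, and 115 and 11 in misaligned mice, with a median difference of -0.26 and -0.34, against -0.03 and -0.03 over all 7345. Lipogenesis genes had a median of -0.60 in controls (16 of 102 higher in females, 4 in males) and -0.19 in misaligned mice (7 and 18). Of 110 introns in drug metabolism genes 32 were higher in males and 20 in females in controls, and 32 and 16 in misaligned mice. Of 83 in gluconeogenesis genes 12 and 1 were called in controls and 23 and 1 in misaligned mice. Over all 7345 the counts were 824 and 1011 in controls and 946 and 1205 in misaligned mice. Some markers of other liver cells differed between the sexes as well. Of 35 such genes 7 had introns in the set, 15 introns, of which 8 were higher in females in controls and 2 in males. The 8 were the 6 introns of Clec4f, a Kupffer cell receptor (intron 3 at -0.99), and Stab2 introns 22 and 63, of sinusoidal endothelium (both -0.33). The 2 were Col3a1 intron 2 (1.46) and Dcn intron 7 (0.61), of fibroblasts and stellate cells. Not called were the other endothelial introns, Stab2 intron 64 (-0.13), Clec4g introns 2 and 8 (-0.03 and -0.08), Pecam1 intron 13 (-0.33) and Ptprb intron 3 (0.10). Col3a1 intron 2 had a mean of 20.3 counts, and Clec4f introns 4 and 5 had 23.7 and 25.5. Introns so near the minimum can pass it only through the sex where they are higher, so their differences are descriptions. In misaligned mice 7 of the 15 were higher in females and 0 in males, with Col3a1 intron 2 at 0.54 and Dcn intron 7 at 0.14 (edgeR adjusted p = 0.31 and 0.52). The summed level of the 15 was 643 to 1158 CPM, counts scaled to library size, (median 773) in control females and 423 to 863 (median 638) in control males. None of the 15 was called rhythmic, but at the shares over all 7345 given above few or none of 15 would be. Their part in the sex differences was not tested.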

How the data were processed

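The members and the gene lists were chosen with earlier results of these data known. The values are counts per intron on the sense strand, deposited by the authors under a label that names PORT, with gene counts from the same libraries. Totals were nearly equal between libraries, so the counts may have been evened out before deposit. Reads were aligned with STAR 2.6.0c to GRCm38, per the submitters' processing notes, and no counting tool is named beyond the label PORT. Livers were grouped by the labels into 24 groups of 3 biological replicates.

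Intron counts (887656 to 926074 per library) were scaled by TMM and fitted with edgeR 4.0.16 in R 4.3.3 (robust quasi-likelihood), with a cosine of 24 h per sex and treatment for rhythms and 24 group means for mean differences. Low introns were removed by edgeR's filterByExpr with its defaults, p-values were adjusted by Benjamini-Hochberg over all 28916 introns, and the threshold was 0.05. The log2 ratio of intron CPM to gene CPM (prior count 2) was fitted with limma 3.58.1. Scripts were tested on simulated data. Intron numbers follow GENCODE, and the printed introns were read from its retained-intron transcripts, the 44 short ones from exons of any transcript. Names follow a rule: introns of core clock genes, the 2 best of each other list, the 8 smallest p per rhythm test, the 5 largest amplitudes per group, the 8 largest differences in each direction, the highest counts, the 6 smallest p per ratio test and the genes with most or widest-spread introns, leaving out predicted genes and pseudogenes. DESeq2 1.42.0, limma-voom, no filter, other minimum counts, the replicate block and leaving out replicates were alternatives. Some introns that meet the rule are not reported here.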

Additional observations from a re-analysis of the deposited data

Results flagged for a closer look

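The change of rhythm with misalignment differed between females and males, by the interaction test of edgeR, for 58 introns. The smallest adjusted p by edgeR was 0.00337, reached by Ces1d intron 13, Ces1d intron 6 and 2 overlapping rows of Chka intron 2. Slc17a4 intron 11, of an organic anion transporter, followed with 0.00385, Mcrip2 intron 2 with 0.00386 and the 2 rows of Dbp intron 1 with 0.00622 (edgeR adjusted p). Without replicate 1 none of the 58 was left.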

How the results depend on the processing

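Counts of called introns are given in the order control females, misaligned females and control males for rhythms. Without 1 replicate number they ranged over 161 to 269, 73 to 147 and 89 to 217, and over 0 to 5 in misaligned males. The rhythm change in males ranged over 0 to 214, its sex difference over 0 to 22, the sex difference of means over 983 to 1377 in controls and 1260 to 1511 in misaligned mice, and the ratio rhythms over 25 to 42 (control females), 4 to 33 (control males) and 0 to 32 (change in males). A test over 6 clock times with 5 df gave 222, 120 and 191, 152 for the change in males and 18 for its sex difference. With only introns of a mean of at least 20 tested, misaligned females had 497, control males 530, misaligned males 4, the change in females 2, in males 464 and its sex difference 146, and the ratio gave 222 in control females and 103 for the change in males. DESeq2 gave 4 in misaligned males, 3 for the change in females and 131 for the sex difference. With no filter these were 21, 6 and 100, and the mean misalignment effect gave 2 in males and 1 for its sex difference. Fitting only the compared libraries, chosen after seeing the data, gave 542 in misaligned females, 226 in control males, 6 for the change in females and 103 in males. Junction counts, also chosen after seeing the data, gave 76 for the ratio rhythm in control females and 33 for the change in males, and turned the sign of the mean ratio effect of Saa1 intron 1 in females (limma adjusted p 0.992). A minimum mean of 10 or 50 gave 14640 or 2656 introns. The causes of these differences were not tested. Of 1640 values of named introns under alternatives 1555 kept direction and side of the threshold, 63 fell out of it, 21 came into it and 1 reversed.

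With the replicate number as a block edgeR called 453, 322 and 336 introns as rhythmic, 245 for the change in males, 58 for its sex difference and 1832 and 2140 for sex, and no other count of calls moved by over 1.5 times. Labels do not say that numbers pair livers, and 18 of 72 livers correlated best with their own number.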
